A study of Mus musculus with 12 samples.

Results

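The Z-disc is the protein lattice that bounds each sarcomere of striated muscle. The 10 genes described here, Actn2, Ldb3, Tcap, Myoz2, Csrp3, Myot, Nebl, Nexn, Flnc and Synpo2l, encode proteins of this lattice and were chosen by name from the 20775 genes of the series. Each was compared between Med30-deleted and control samples within 2 tables of RPKM (read counts divided by gene length and by library size). Med30 encodes a subunit of the Mediator core, which links transcription factors to RNA polymerase II.

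The first table covers whole E10.5 hearts, with 3 control samples (Ctrl) and 3 constitutive knockout samples (cKO, Med30 f/f with Tnnt-Cre). The second covers cardiomyocytes isolated from adult hearts at 3 months of age, 4 weeks after tamoxifen, with 3 Ctrl and 3 inducible knockout samples (icKO, Med30 f/f with αMHC-MerCreMer). Both Cre drivers are used to delete genes in cardiomyocytes, and whole E10.5 hearts hold other cells too, in which Med30 was not measured separately. Ctrl samples are called wild type in the labels, whereas the study's methods describe Cre-negative Med30 f/f mice, given tamoxifen in the adult experiment. By the study's methods, C57BL/6 mice were used in breeding, while the floxed allele was made in embryonic stem cells of another strain. No backcross is described there. The labels do not say whether a sample holds 1 animal or several, and p values then measure the spread between these samples.

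In a sarcomere, thin filaments of opposite polarity overlap at the Z-disc and are cross-linked there by α-actinin. Titin is anchored at the same place, its end capped by telethonin, and further proteins tie the lattice to PDZ-LIM scaffolds, to calcineurin signalling and to the costameres under the membrane. Variants in many of these genes cause cardiomyopathy or skeletal myopathy.

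Upstream sequence was available for 7 of the 10 genes in the RefSeq promoters of GRCm38.p6, and Tcap, Nexn and Myot are named only. The 250 bases before the most upstream start site of each of these genes were searched on both strands. The patterns were the CArG box of serum response factor, the MEF2 site, the E-box (CANNTG) and the MCAT element (CATTCC). Other start sites of these genes were not searched, and which start the heart uses was not tested. A CArG box was found in 1 of the 7 windows (Ldb3) and a MEF2 site in 2 (Myoz2 and Synpo2l). Of all 32851 promoters, 1.47% held a CArG box and 2.92% a MEF2 site. An E-box was found in 5 of the 7 windows, against 66.2% of all promoters. The MCAT element was found in 0 of the 7, against 12.6% of all promoters, which says only that these letters are not in these windows. GC content ran from 40.8% to 72.4% over the 7 windows. The windows of Ldb3, Myoz2 and Synpo2l are shown because they hold a match to the CArG or MEF2 pattern, and that of Flnc because it is the gene that was higher at both stages. They were chosen after the matches had been seen. Capitals mark the letters that match the CArG box in Ldb3 and the MEF2 site in Myoz2 and Synpo2l, and each sequence reads 5′ to 3′ toward its start site. Ldb3, Myoz2 and Synpo2l lie on the minus strand, at chr14:34588682-34588931, chr3:123034988-123035237 and chr14:20668355-20668604. Flnc lies on the plus strand, at chr6:29432903-29433152.
Ldb3: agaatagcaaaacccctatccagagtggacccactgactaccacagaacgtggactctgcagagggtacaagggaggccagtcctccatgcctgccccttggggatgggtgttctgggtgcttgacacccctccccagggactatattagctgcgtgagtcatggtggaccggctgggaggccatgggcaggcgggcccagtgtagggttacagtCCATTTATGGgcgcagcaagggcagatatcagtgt
Myoz2: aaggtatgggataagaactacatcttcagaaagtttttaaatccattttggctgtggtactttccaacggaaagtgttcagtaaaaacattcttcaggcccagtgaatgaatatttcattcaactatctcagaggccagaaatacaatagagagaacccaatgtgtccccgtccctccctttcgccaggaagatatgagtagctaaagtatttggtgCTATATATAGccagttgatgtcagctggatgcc
Synpo2l: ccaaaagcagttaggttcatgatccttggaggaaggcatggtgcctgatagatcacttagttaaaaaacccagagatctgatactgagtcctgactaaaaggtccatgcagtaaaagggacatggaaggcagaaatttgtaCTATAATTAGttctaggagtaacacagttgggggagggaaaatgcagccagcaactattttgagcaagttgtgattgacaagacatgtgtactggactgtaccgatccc
Flnc: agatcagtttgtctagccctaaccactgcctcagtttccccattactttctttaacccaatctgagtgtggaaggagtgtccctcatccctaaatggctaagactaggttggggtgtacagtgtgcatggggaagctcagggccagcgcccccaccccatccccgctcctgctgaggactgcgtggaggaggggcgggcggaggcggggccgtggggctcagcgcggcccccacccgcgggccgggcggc
The first base of the CArG box lay 35 bases before the start site of Ldb3. The first base of the MEF2 site lay 33 bases before the start of Myoz2 and 109 bases before that of Synpo2l. A match describes the letters in a window and is not evidence of binding.

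Coordinates are those of GRCm38. Actn2 is at chr13:12269426-12340760, Ldb3 at chr14:34526603-34588682 and Nebl at chr2:17343909-17731464, all on the minus strand. Myoz2 (chr3:123006206-123035015), Nexn (chr3:152236982-152266350), Csrp3 (chr7:48830398-48848033) and Synpo2l (chr14:20658946-20668354) are on the minus strand too. Tcap (chr11:98383811-98384953) and Flnc (chr6:29433256-29461883) are on the plus strand, and their transcripts are the extremes of the set, with 2 exons in 948 bases for Tcap and 48 exons in 9038 bases for Flnc.

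The targeted gene was lower in all 6 knockout libraries. Med30 RPKM was 10.6, 13.3 and 11.3 in E10.5 Ctrl and 1.38, 2.02 and 1.0 in cKO, a log2 fold change of −2.96 (SE 0.225, limma adjusted p = 0.000367). In adult cardiomyocytes it was 7.66, 7.45 and 7.66 in Ctrl and 3.81, 3.16 and 1.83 in icKO, a log2 fold change of −1.40 (SE 0.229, limma adjusted p = 0.000403). The steps between the lowest RPKM gave an estimated 13.7 to 20 M reads per library at E10.5 and 11.9 to 17.5 M at 4 weeks, with 67.2% to 76.7% of the low values no more than 0.1 away from a whole read. Cardiomyocyte markers were abundant at both stages, with a summed RPKM of Tnnt2, Tnnc1, Actc1, Myh6, Myl3, Myl4, Tnni3 and Nkx2-5 of 4398 or more in every library, and none of these 8 was at 0. In the adult libraries the 20 most abundant genes took 24.2% to 24.8% of the summed RPKM in Ctrl and 10.7% to 12.2% in icKO. Over all genes tested, the deposited RPKM gave a median log2 fold change of 0.57 at 4 weeks and −0.13 at E10.5. Median-ratio scaling between libraries moved these medians to 0.01 and −0.01. Changes are given as deposited, and those of the 10 genes at 4 weeks also relative to that median.

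In the control libraries the 10 genes spanned a wide range of RPKM, a scale that takes gene length into account. In E10.5 Ctrl hearts Csrp3 (194 ± 28.7 RPKM, SD, n = 3) and Actn2 (164 ± 25.6) were the most abundant, and their libraries overlapped. Nexn, Nebl, Synpo2l and Flnc followed at 76.0 to 45.9 RPKM, each overlapping its neighbour in the order, and then came Ldb3 at 38.0 ± 3.55. Myoz2 and Tcap were low at this stage, at 17.6 ± 3.66 and 13.3 ± 1.28 RPKM, and overlapped. Myot was near the limit of detection, with 0.045, 0.114 and 0.197 RPKM in Ctrl and 0.258, 0.026 and 0 in cKO, where 3 reads correspond to 0.0679 to 0.0991 RPKM by counting error alone. Of the 6 libraries 3 lay above their own limit. Myot did not enter the E10.5 test.

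Adult Ctrl cardiomyocytes had another order. Tcap led at 918 ± 29.4 RPKM, above Csrp3 at 677 ± 11.7, and Actn2 (626 ± 30.7) and Myoz2 (604 ± 21.7) followed with overlapping libraries. Ldb3 came next at 306 ± 13.7, then Nexn at 132 ± 9.51, Flnc at 70.3 ± 6.80, Synpo2l at 39.1 ± 4.54, Nebl at 36.8 ± 1.76 and Myot at 14.6 ± 2.49. Of these neighbours, Synpo2l and Nebl overlapped. The 2 tables were normalised separately and hold different preparations, so levels were not tested between them.

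**Figure D1:**
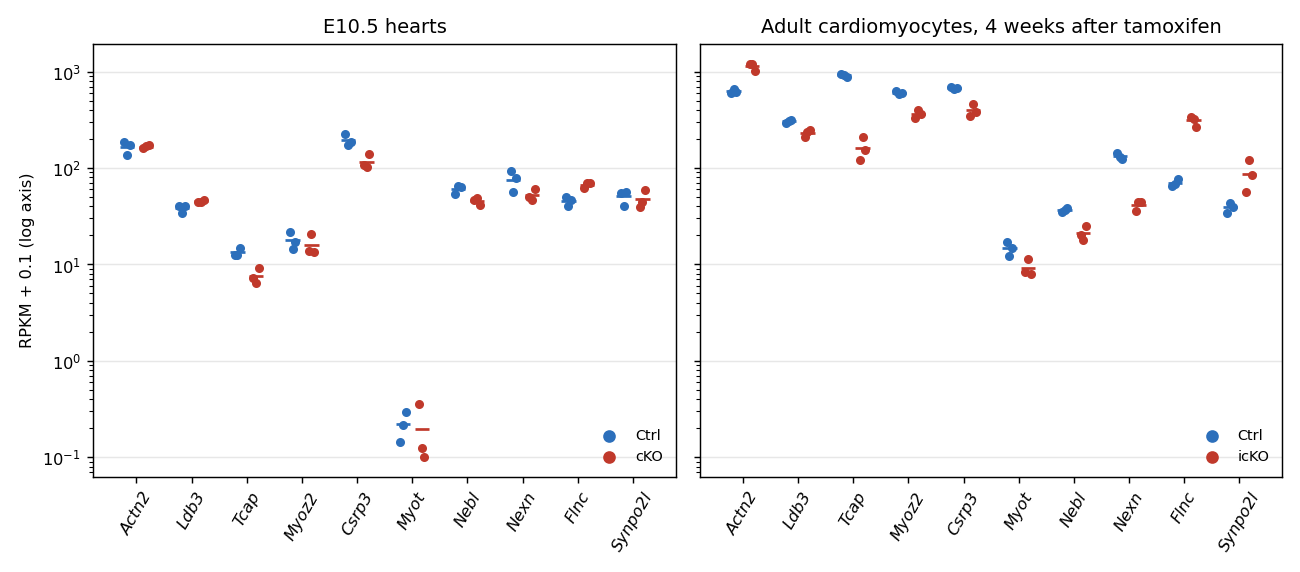
RPKM + 0.1 on a log axis for the 10 Z-disc genes in each library, with Ctrl in blue, knockout in red and a horizontal line at each group mean, for E10.5 hearts (left) and adult cardiomyocytes (right). The groups overlap for 5 of the 10 genes at E10.5, Myot among them, and for none at 4 weeks, where Tcap falls from the highest of the 10 in Ctrl to 162 RPKM. Over all genes tested, the groups did not overlap for 29.1% at E10.5 and for 80.8% at 4 weeks.

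The adult comparison asked what loss of Med30 in grown cardiomyocytes did to transcripts of this lattice. Of the 10 genes, 7 were lower and 3 higher in icKO at a limma adjusted p under 0.05. Ldb3, Tcap, Myoz2, Csrp3, Myot, Nebl and Nexn were lower, and Actn2, Flnc and Synpo2l were higher. Over all 9517 genes tested, 78.7% passed, 18.1% lower and 60.6% higher, so the count of members that passed is not itself a result about them. The groups did not overlap for any of the 10, against 80.8% of all genes (18.9% lower and 62.0% higher). The median log2 fold change was −0.70 over the members and 0.57 over all genes. After median-ratio scaling, 7 were lower and 2 higher, against 34.6% and 33.6% of all genes (68.2% in both directions), and the medians were −1.26 and 0.01. Fewer cardiomyocytes in a sample and less of an RNA per cardiomyocyte cannot be told apart in such bulk libraries.

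Of the 10 genes, Tcap had the largest log2 fold change in either direction. Tcap encodes telethonin, which caps the amino-terminal end of titin. Its RPKM was 939, 931 and 884 in Ctrl and 121, 211 and 155 in icKO. Every icKO library lay below every Ctrl library, and the mean was lower by 82.3%. The log2 fold change was −2.54 (SE 0.172, limma adjusted p = 1.98e-06), or −3.10 relative to the median gene, and 1.78% of the genes tested had a lower value.

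Csrp3, Myoz2 and Myot fell by smaller amounts. Csrp3 encodes muscle LIM protein, a cardiomyocyte LIM-domain protein of the Z-disc, and had 690, 667 and 675 RPKM in Ctrl and 350.0, 465 and 385 in icKO (log2 fold change −0.77, SE 0.104, limma adjusted p = 0.000126). Myoz2 encodes calsarcin-1, which binds α-actinin and the phosphatase calcineurin. Its RPKM was 627, 583 and 603 in Ctrl and 334, 399 and 368 in icKO (log2 fold change −0.72, SE 0.0842, limma adjusted p = 4.82e-05). The means were lower by 40.9% for Csrp3 and by 39.3% for Myoz2. Myot encodes myotilin, an immunoglobulin-domain protein that binds α-actinin, filamin and actin, and was the least abundant of the 10. It had 17, 12 and 14.6 RPKM in Ctrl and 8.21, 11.3 and 7.80 in icKO (log2 fold change −0.68, SE 0.167, limma adjusted p = 0.00466), and its highest icKO library came close to its lowest Ctrl library. Relative to the median gene the changes of Csrp3, Myoz2 and Myot were larger, at −1.34, −1.29 and −1.25.

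The α-actinin core did not move as a unit. Actn2 encodes α-actinin 2, the cross-linker of thin filaments. Its RPKM was 602, 661 and 617 in Ctrl and 1191, 1211 and 1016 in icKO, 1.82 times the Ctrl mean (log2 fold change 0.86, SE 0.0900, limma adjusted p = 2.48e-05). Relative to the median of all genes this was 0.29, and after median-ratio scaling Actn2 was higher by 0.29 on the log2 scale (limma adjusted p = 0.0106). Quantile normalization gave 1.68 for Actn2 (limma adjusted p = 9.09e-06), so the size of its rise depended on the scaling. Ldb3 encodes Cypher, the PDZ-LIM protein that binds α-actinin, and had 291, 309 and 318 RPKM in Ctrl and 211, 236 and 251 in icKO. The Ldb3 groups did not overlap, and the log2 fold change was −0.40 (SE 0.0847, limma adjusted p = 0.00198), or −0.97 relative to the median gene. With quantile normalization Ldb3 no longer passed (log2 fold change −0.17, limma adjusted p = 0.124). Nebl encodes nebulette, the short cardiac relative of nebulin that runs from the Z-disc along the thin filament. It had 35.0, 36.9 and 38.5 RPKM in Ctrl and 19.9, 17.9 and 25.1 in icKO (log2 fold change −0.82, SE 0.122, limma adjusted p = 0.000221), and the change was −1.39 relative to the median gene. An antisense gene, Gm13324, overlaps Nebl in the annotation, and whether the reads were counted by strand is not given in the sources used here. Short genes also lie within Myoz2 (Gm22066) and Nexn (Gm43185), on the same strand.

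Among the 10, the genes of actin-binding proteins held the largest rise and the second largest fall. Flnc encodes filamin C, which cross-links actin at Z-discs, costameres and intercalated discs. Its RPKM was 64.4, 68.6 and 77.7 in Ctrl and 342, 326 and 267 in icKO, 4.43 times the Ctrl mean. The lowest icKO library was well above the highest Ctrl library. The log2 fold change was 2.14 (SE 0.111, limma adjusted p = 5.98e-07), or 1.58 relative to the median, a value above that of 95.4% of genes. Nexn encodes nexilin, a filamentous actin-binding protein, and had 143, 129 and 125 RPKM in Ctrl and 36.1, 44.7 and 43.9 in icKO. The Nexn mean was lower by 68.6%, with a log2 fold change of −1.67 (SE 0.101, limma adjusted p = 1.17e-06), or −2.24 relative to the median gene. Synpo2l encodes CHAP, a synaptopodin-like protein that binds α-actinin. It had 34.5, 43.5 and 39.3 RPKM in Ctrl and 56.1, 121 and 84.2 in icKO, and its icKO libraries were spread wider than those of any other of the 10 relative to their mean. The log2 fold change was 1.09 (SE 0.235, limma adjusted p = 0.00219), or 0.52 relative to the median gene. It was 0.82 without icKO replicate 2, and after median-ratio scaling 0.52 with a limma adjusted p of 0.0831. A log2 fold change beyond 1 was reached by Tcap and Nexn on the lower side and by Flnc and Synpo2l on the higher side, against 8.45% and 28.0% of all genes. With median-ratio scaling 6 of the 10 were lower by more than 1 and 1, Flnc, was higher, against 15.9% and 11.1% of all genes.

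**Figure D2:**
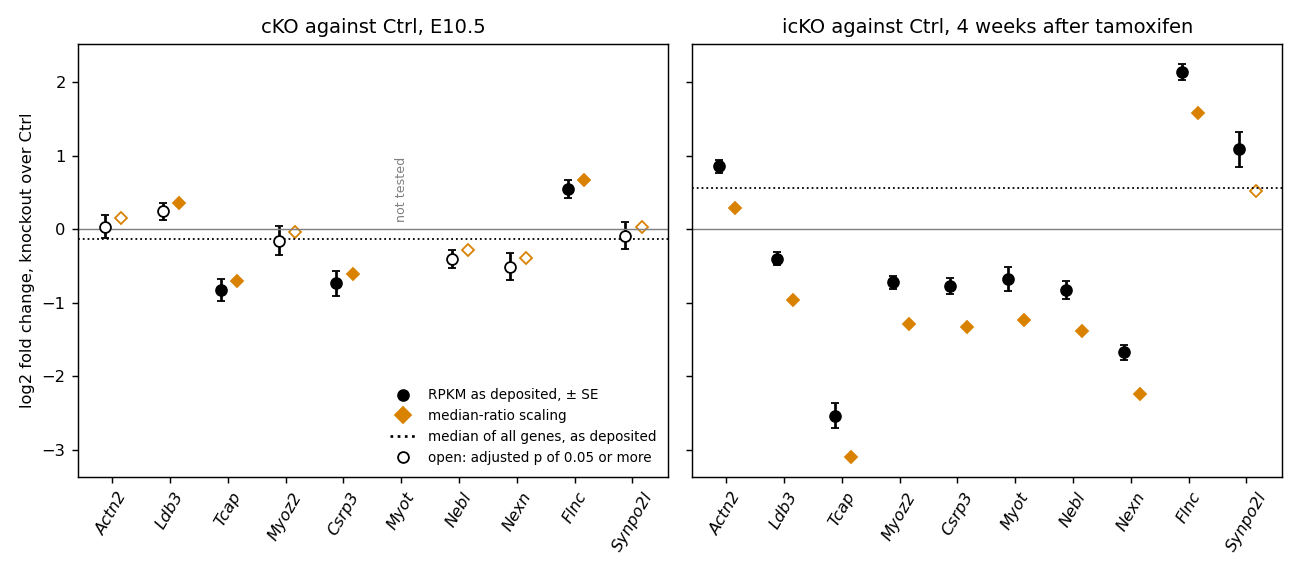
Log2 fold change of knockout over Ctrl for each of the 10 genes at E10.5 (left) and 4 weeks (right), as deposited with its SE (black circles) and after median-ratio scaling (orange diamonds). Open symbols have an adjusted p of 0.05 or more, and the dotted line is the median of all genes tested. At 4 weeks, 7 genes lie below 0 under both scalings, while Actn2, Flnc and Synpo2l lie above it.

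The share that each gene took of the summed RPKM of the 10 is the same under any scaling by 1 factor per library. Shares are tied to one another, so a fall of 1 gene raises those of the others. In adult Ctrl, Tcap took 26.8% ± 0.644 (SD, n = 3) and Actn2 18.3% ± 0.867. In icKO, Tcap took 5.81% ± 1.22 and Actn2 41.2% ± 3.04. Tcap led the 10 in every Ctrl library and Actn2 in every icKO library. The share of Flnc went from 2.05% ± 0.215 to 11.3% ± 1.37, that of Synpo2l from 1.14% ± 0.133 to 3.10% ± 0.942 and that of Nexn from 3.87% ± 0.256 to 1.5% ± 0.170. Csrp3 (19.8% ± 0.352 to 14.4% ± 1.14) and Myoz2 (17.6% ± 0.639 to 13.3% ± 0.818) also took less. The groups overlapped for Ldb3, at 8.95% ± 0.460 and 8.43% ± 1.05, and for Myot. The sum itself was 3426 ± 27.9 RPKM in Ctrl and 2771 ± 237 in icKO, with no overlap. Ratios within a library restate these values. Each pair given here sets a gene that was higher over one that was lower, so the ratios are no further support. No such ratio was formed for other genes. Actn2 over Tcap was 0.641 to 0.710 in Ctrl and 5.73 to 9.88 in icKO, and Actn2 over Ldb3 was 1.94 to 2.14 in Ctrl and 4.05 to 5.65 in icKO. Flnc over Csrp3 was 0.0934 to 0.115 in Ctrl and 0.693 to 0.977 in icKO. In icKO the level order was led by Actn2 at 1139 ± 107 RPKM, followed by Csrp3, Myoz2 and Flnc, which overlapped in turn, and then by Ldb3, Tcap and Synpo2l, each overlapping the next.

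**Figure D3:**
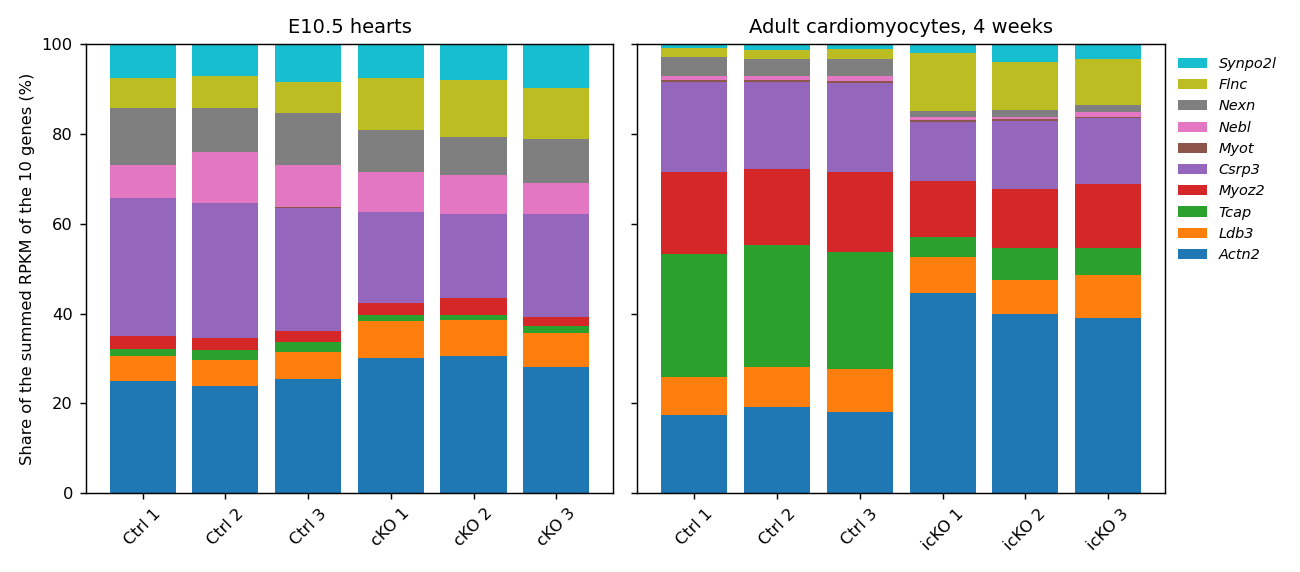
Share of each of the 10 genes in their summed RPKM (%), as 1 stacked bar per library, for E10.5 hearts (left) and adult cardiomyocytes (right). In adult libraries the Tcap segment shrinks from a mean of 26.8% in Ctrl to 5.81% in icKO, and the Actn2 segment grows from 18.3% to 41.2%.

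At E10.5 fewer of these genes passed the test. Of the 9 genes tested, Tcap and Csrp3 were lower and Flnc was higher in cKO hearts at a limma adjusted p under 0.05, and 6 did not pass. Among all 10885 genes tested 4.32% passed, 3.45% lower and 0.864% higher. The groups did not overlap for 5 of the 9, against 29.1% of all genes (22.6% lower and 6.5% higher). The median log2 fold change of the 9 was −0.16 and that of all genes −0.13. By limma, 0 of the 9 passed with a log2 fold change beyond 1, against 0.542% of all genes lower and 0.239% higher, and 5 had an unadjusted p under 0.05 (4 lower and 1 higher). These calls were near the threshold. Without Ctrl replicate 1, Ctrl replicate 3, cKO replicate 1 or cKO replicate 2, 0 of the 9 passed by limma, and 4 or 5 of them then had an unadjusted p under 0.05. Without Ctrl replicate 2, 1 passed (Tcap), and without cKO replicate 3, 2 passed (Tcap and Csrp3). The direction of the 3 genes did not change in any of these 6 fits.

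Tcap RPKM was 12.6, 12.5 and 14.8 in Ctrl hearts and 7.09, 6.34 and 9.12 in cKO hearts. All cKO libraries lay below all Ctrl libraries, and the mean was lower by 43.4% (log2 fold change −0.83, SE 0.150, limma adjusted p = 0.0251). Csrp3 RPKM was 226, 171 and 185 in Ctrl and 107, 103 and 140 in cKO. Its groups did not overlap either, and the mean was lower by 39.8% (log2 fold change −0.74, SE 0.167, limma adjusted p = 0.0422). Flnc, the actin cross-linker, went the other way. It had 50.6, 40.3 and 46.7 RPKM in Ctrl and 61.7, 69.4 and 70.3 in cKO, 1.46 times the Ctrl mean (log2 fold change 0.55, SE 0.124, limma adjusted p = 0.0414). Relative to the median of all genes these changes were −0.70, −0.61 and 0.68. Leaving out 1 library at a time gave adjusted p values of up to 0.103 for Tcap, 0.149 for Csrp3 and 0.139 for Flnc.

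Ldb3 and Nebl did not overlap between the E10.5 groups and did not pass. The PDZ-LIM gene Ldb3 had 40.1, 33.9 and 40.1 RPKM in Ctrl and 44.0, 44.4 and 46.4 in cKO (log2 fold change 0.24, SE 0.112, limma adjusted p = 0.224). Median-ratio scaling brought it past the threshold, at 0.36 with a limma adjusted p of 0.0384, so that 2 genes were lower and 2 higher, against 2.56% and 2.49% of all genes (5.05% in both directions). The nebulette gene Nebl had 53.5, 64.8 and 63.2 RPKM in Ctrl and 46.8, 48.8 and 41.4 in cKO (log2 fold change −0.40, SE 0.123, limma adjusted p = 0.0887). Nexn was at 76.0 ± 19.0 RPKM (SD, n = 3) in Ctrl and 52.4 ± 6.81 in cKO, with overlap (log2 fold change −0.51, SE 0.186, limma adjusted p = 0.139). The other three genes differed little against their spread. Actn2 ranged from 135 to 185 RPKM in Ctrl and from 160 to 172 in cKO, Myoz2 from 14.3 to 21.5 and from 13.4 to 20.7, and Synpo2l from 40.4 to 56.8 and from 39.6 to 59.6. Their log2 fold changes were 0.04, −0.16 and −0.09, with standard errors of 0.151, 0.196 and 0.181, and each changed sign under at least 1 other scaling or without 1 library.

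Shares within the lattice also differed at E10.5. Csrp3 went from 29.4% ± 1.70 of the summed RPKM in Ctrl to 20.6% ± 2.16 in cKO, Flnc from 6.96% ± 0.117 to 11.9% ± 0.572 and Actn2 from 24.8% ± 0.864 to 29.6% ± 1.32. Ldb3 rose from 5.78% ± 0.306 to 7.96% ± 0.366, while Tcap went from 2.03% ± 0.287 to 1.32% ± 0.173 and Nexn from 11.4% ± 1.44 to 9.25% ± 0.697. None of these 6 overlapped between groups, whereas Myoz2, Myot, Nebl and Synpo2l did. No such share was formed for other genes, and in RPKM 29.1% of all genes tested did not overlap. The RPKM of Actn2 itself overlapped (log2 fold change 0.04, limma adjusted p = 0.907). The summed RPKM of the 10 overlapped, at 660 ± 85.5 in Ctrl and 565 ± 42.1 in cKO. Actn2 over Tcap was 10.8 to 14.7 in Ctrl and 18.8 to 26.7 in cKO, and Flnc over Csrp3 was 0.223 to 0.253 and 0.502 to 0.674. Actn2 over Ldb3 was lower in cKO at E10.5 (3.99 to 4.61 in Ctrl, 3.63 to 3.81 in cKO), the opposite side from the adult cardiomyocytes.

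Whether the knockout effect differed between stages was tested as a contrast over all 12 libraries. Of the 9 genes tested at both stages, 7 passed at a limma adjusted p under 0.05. The difference was lower at 4 weeks for 4 and higher for 3, where 68.7% of the 8909 genes passed, 9.29% lower and 59.4% higher. The median over all genes was 0.69 in this contrast. For Tcap the effect at 4 weeks was lower than at E10.5 by 1.71 on the log2 scale (log2 difference −1.71, SE 0.249, limma adjusted p = 4.77e-05), and for Flnc it was higher by 1.59 (SE 0.174, limma adjusted p = 4.48e-06). Nexn (−1.16), Ldb3 (−0.64) and Myoz2 (−0.57) were on the lower side, with limma adjusted p values of 0.000610, 0.00128 and 0.0493. The call of Myoz2 was at the threshold: it was lost in 5 of 9 processing alternatives (limma adjusted p up to 0.0920) and in 8 of 12 fits that left out 1 library (limma adjusted p up to 0.130). These were the fits without E10.5 Ctrl replicate 2 or 3, cKO replicate 2, any 1 of the adult Ctrl replicates, or icKO replicate 1 or 3. Actn2 (0.82) and Synpo2l (1.17) were on the higher side, with 0.00127 and 0.00656. After median-ratio scaling the median was 0.02, and 6 of the 9 genes passed on the lower side and 1 on the higher, against 25.7% and 27.2% of all genes. Actn2 (0.13, limma adjusted p = 0.413) and Synpo2l (0.49, limma adjusted p = 0.215) no longer passed. With quantile normalization Actn2 did pass, at 1.40 (limma adjusted p = 2.55e-05) against a median of 0.09 over all genes, and Synpo2l did not, at 0.56 (limma adjusted p = 0.145). Csrp3 had nearly the same change at both stages as deposited (difference −0.03, SE 0.210, limma adjusted p = 0.894), but median-ratio scaling gave −0.72 (limma adjusted p = 0.00262). Nebl did not pass either (−0.42, SE 0.177, limma adjusted p = 0.0501), and did so after median-ratio scaling (−1.10, limma adjusted p = 0.000812). Stage, tissue preparation and Cre driver differ together here and cannot be told apart. The state of the heart differs with them, since the paper places E10.5 before overt cardiac defects and the adult samples after the onset of cardiomyopathy.

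Relatives of the 10 from the same gene families were read from a list of 20 (other α-actinins, PDZ-LIM proteins, calsarcins, CRP proteins, palladins, nebulins, filamins and synaptopodins). In adult cardiomyocytes 13 of the 17 tested were higher and 2 lower, against 60.6% and 18.1% of all genes, with a median log2 fold change of 1.65 beside 0.57 over all genes. After median-ratio scaling 8 were higher and 2 lower, against 33.6% and 34.6%, with a median of 1.1 beside 0.01. Actn1, an α-actinin of non-muscle cells, had 3.18 ± 0.295 RPKM in Ctrl and 73.3 ± 12.9 in icKO (log2 fold change 4.47, limma adjusted p = 8.11e-08). Pdlim7, a PDZ-LIM relative of Ldb3, had 16.1 ± 1.17 and 163 ± 8.22 (3.33, limma adjusted p = 8.11e-08), and Flna, the widely expressed filamin, had 1.44 ± 0.429 and 18.8 ± 1.52 (3.66, limma adjusted p = 7.65e-07). Both relatives that were lower encode synaptopodins. Synpo2 went from 17.1 ± 0.965 to 4.60 ± 1.32 RPKM (−1.91, limma adjusted p = 1.90e-05) and Synpo from 37.3 ± 3.98 to 14.4 ± 2.70 (−1.38, limma adjusted p = 2.29e-05), on the other side from their relative Synpo2l. The summed RPKM of the 20 was 558 to 585 in Ctrl and 1437 to 1583 in icKO. At E10.5, 3 of the 18 tested were higher and 1 lower, against 0.864% and 3.45% of all genes, with a median of 0.28 beside −0.13. Pdlim7 (1.02, limma adjusted p = 0.0182), Csrp1 (0.64, limma adjusted p = 0.0451) and Flna (0.50, limma adjusted p = 0.0492) were higher, and the calsarcin gene Myoz1 was lower (−0.64, limma adjusted p = 0.0291).

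Other genes of the Z-disc and its surroundings were read from a list of 25 (titin, desmin, capping proteins, Xin proteins, four-and-a-half-LIM proteins, calcineurin and others). At 4 weeks 13 of the 24 tested were higher and 7 lower, near the 60.6% and 18.1% of all genes, and their median of 0.51 was near the 0.57 of all genes. After median-ratio scaling all 24 passed, 12 higher and 12 lower, against 33.6% and 34.6% of all genes (68.2% in both directions). Their median was then −0.05 beside 0.01. Fhl2, a LIM protein that binds titin, had 634 ± 114 RPKM in Ctrl and 52.9 ± 7.14 in icKO (log2 fold change −3.57, limma adjusted p = 2.21e-07). Cmya5, which encodes the large muscle protein myospryn, and Fhod3, a formin of cardiac sarcomeres, were also lower (−1.98, limma adjusted p = 7.14e-07, and −1.5, limma adjusted p = 1.54e-06). On the higher side were Lmcd1 (3.14, limma adjusted p = 1.34e-07), Rcan1, a regulator of calcineurin (2.82, limma adjusted p = 1.70e-06), and Capza1, an actin capping subunit (1.60, limma adjusted p = 7.27e-06). At E10.5, 1 of the 23 tested was higher, Vcl encoding vinculin (0.49, limma adjusted p = 0.0415), and 1 lower, Fhl2 (−0.68, limma adjusted p = 0.0277), against 0.864% and 3.45% of all genes. Ankrd2 was at 0 in all E10.5 libraries.

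**Figure D4:**
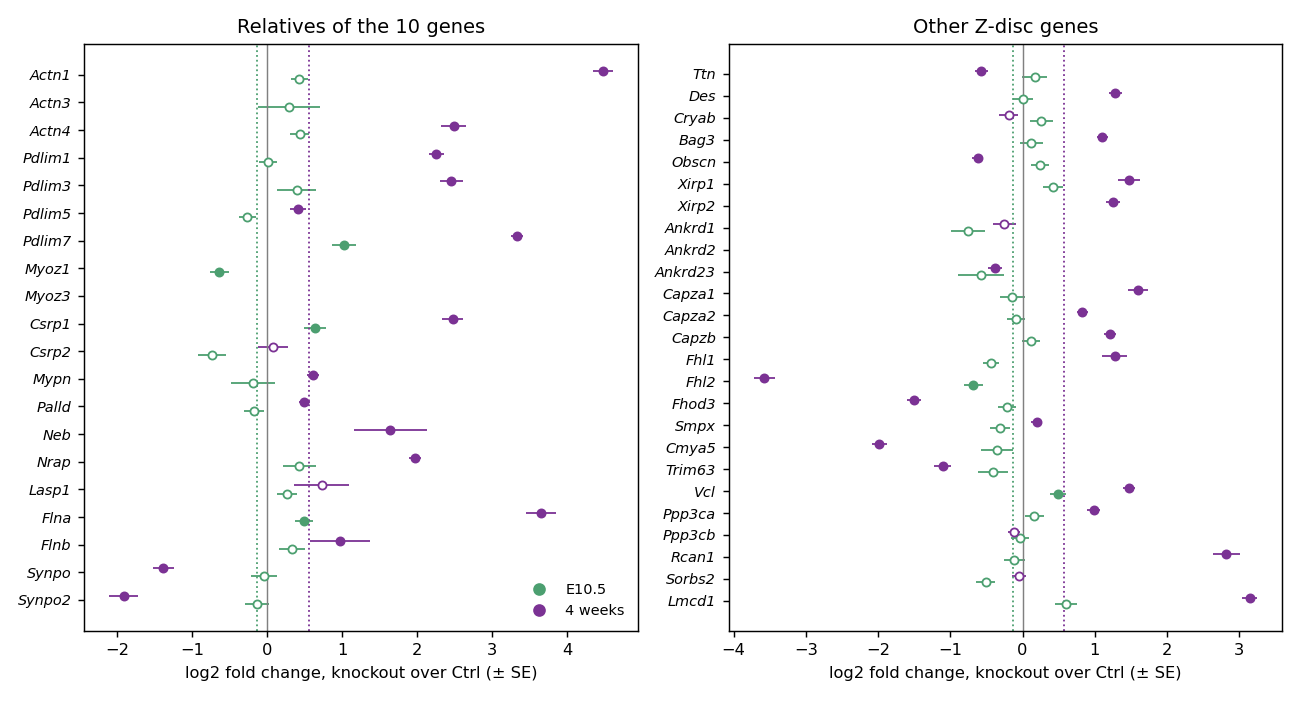
Log2 fold change of knockout over Ctrl with its SE for 20 relatives of the Z-disc genes (left) and 25 other Z-disc genes (right), at E10.5 (green) and 4 weeks (purple). Filled points have an adjusted p under 0.05 and dotted lines mark the medians of all genes tested. At 4 weeks most relatives lie to the right of the purple line, with Actn1 at 4.47, while Synpo and Synpo2 lie to the left of 0.

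Markers of several cell types were read beside these genes in the adult libraries. Over all genes tested there, 18.1% were lower and 60.6% higher, and 34.6% and 33.6% after median-ratio scaling. The summed RPKM of the 8 cardiomyocyte markers was 20134 to 21443 in Ctrl and 8087 to 10441 in icKO, with 5 lower and 3 higher (5 and 1 after median-ratio scaling). That of 8 fibroblast markers was 5.03 to 8.39 and 60.4 to 87.5, and the 5 tested were all higher (4 after median-ratio scaling). Smooth muscle and pericyte markers summed to 62.7 to 87.1 and 237 to 378 RPKM, and 3 of the 6 tested were higher and 1 lower (2 and 2 after median-ratio scaling). Most of that rise was Cnn1, a calponin gene, at 0.167 ± 0.0920 RPKM in Ctrl and 254 ± 75.2 in icKO, whereas Acta2 was at 48.1 ± 15.8 and 35.8 ± 7.60. Macrophage markers went from 3.02 to 4.82 up to 7.17 to 10.4, with 3 of the 3 tested higher (1 after median-ratio scaling). Endothelial (11.7 to 27.4 and 27.3 to 43.9) and erythroid (1.22 to 5.60 and 3.52 to 9.04) sums overlapped. Of the 8 endothelial markers 3 were higher, Pecam1, Cdh5 and Emcn, a smaller share than that of all genes. After median-ratio scaling 0 passed by limma, where the adjusted p values of these 3 were 0.213, 0.411 and 0.0539. The 1 erythroid marker tested did not pass. No marker was at 0 throughout a stage. The part of cell make-up in the results of the 10 genes was not tested. At E10.5 the sums overlapped for cardiomyocyte (5217 to 6932 and 4398 to 5223), fibroblast (90.6 to 166 and 116 to 133), endothelial (129 to 181 and 156 to 165) and erythroid markers (316 to 1073 and 487 to 2862). The sum of the smooth muscle and pericyte list was higher in cKO without overlap (509 to 616 and 689 to 842), and the macrophage sum was lower without overlap (8.87 to 11.8 and 4.98 to 6.88). Acta2, Tagln and Cnn1 made up most of the former, with Ctrl means of 366, 127 and 52.3 RPKM. Myh11 and Kcnj8 of the same list were at 0.125 and 0.142 RPKM in Ctrl, so the sum does not stand for a cell type. Of the 6 smooth muscle markers tested, Cnn1 alone passed (limma adjusted p = 0.00203), with 0.227 for Acta2 and 0.258 for Tagln. Of the 2 macrophage markers tested, Lyz2 passed (7.72 to 3.77 RPKM, limma adjusted p = 0.0275) and Cd68 did not (0.830). Among all genes tested at E10.5, 4.32% passed and 29.1% did not overlap. The limma adjusted p values of the 8 cardiomyocyte markers ran from 0.217 to 0.970 at E10.5.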

How the data were processed

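RNA-seq libraries were made from 12 samples, 3 in each of 4 groups, after removal of ribosomal RNA. Per the submitters' processing notes the tools were cutadapt 2.6, STAR 2.5.3a, HOMER 4.11.1 and DESeq2 1.12.4 and the build was GRCm38. The authors deposited RPKM per gene and sample for each stage, beside their own log2 fold changes and FDR values, which were not used. Whether reads were counted by strand is not given in the sources used here. The E10.5 table heads its knockout columns icKO, and these are the cKO samples by their labels.

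Each stage was fitted with limma 3.58.1 (lmFit, eBayes with trend, R 4.3.3) on log2(RPKM + 0.1), and genes entered where their mean RPKM over its 6 samples was above 1. This scale understates changes of low genes. Benjamini-Hochberg adjustment covered every gene in a fit, and passing means an adjusted p under 0.05. The contrast between stages used 1 fit of the 12 samples. An exact permutation test of 3 against 3 cannot go below 0.1. The fits were tested on simulated data with 200 genes changed. Reads per library were estimated as the depth at which low RPKM values fall nearest to whole reads, given GENCODE vM21 gene lengths. Chance puts 20% of values within 0.1 of a whole read. Floors of 3 reads cover counting error only. Median-ratio scaling divides each library by its median ratio to the mean log profile.

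The 10 genes and all lists were chosen with earlier results of these data known. Named beside them were Med30 and, from the lists of relatives and of other Z-disc genes, at each stage the 3 passing genes that changed most on either side. Cnn1 and Acta2 were named after their values were seen. The fits were repeated with a pseudocount of 1 or 0.01, with the RPKM filter dropped or raised to 5, after quantile normalization, median-ratio scaling or rescaling that leaves out the top 20 genes, without the eBayes trend, with the replicate number as a block and with each replicate omitted. Summaries used Python 3.11.15, pandas 2.3.3, numpy 2.4.6 and matplotlib 3.10.9. No column was left unmapped.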

Additional observations from a re-analysis of the deposited data

Results flagged for a closer look

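For 7 of the 9 Z-disc genes tested the knockout effect differed between E10.5 hearts and adult cardiomyocytes, tested as the contrast between the effects of the stages in 1 limma fit of the 12 libraries. Over all 8909 genes 68.7% passed this contrast, so the count is near the background. The difference, as the log2 fold change at 4 weeks minus that at E10.5, was −1.71 for Tcap, −1.16 for Nexn, −0.64 for Ldb3 and −0.57 for Myoz2. It was 1.59 for Flnc, 1.17 for Synpo2l and 0.82 for Actn2. For Tcap and Flnc the change had the same direction at both stages and was larger in adult cardiomyocytes. For Ldb3 the value was above 0 at E10.5 and below 0 at 4 weeks, and the E10.5 value did not pass. The median of all genes in this contrast was 0.69. Actn2 depended on the scaling, with 0.13 after median-ratio scaling (limma adjusted p = 0.413) and 1.40 after quantile normalization (limma adjusted p = 2.55e-05), beside medians of 0.02 and 0.09. Synpo2l no longer passed after median-ratio scaling (limma adjusted p = 0.215), and Myoz2 was lost in 8 of 12 fits that left out 1 library. The preparation, the Cre driver and the presence of overt cardiomyopathy changed with the stage, and their parts were not tested.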

How the results depend on the processing

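At 4 weeks between 9 and 10 of the 10 genes passed under every alternative run, and all kept their direction. Over all genes 78.7% passed as deposited and 68.2% after median-ratio scaling, so this count is not a result about the 10. Shares over all genes were not taken for the other alternatives, here or below, so their counts cannot be set against a background. Median-ratio scaling lost Synpo2l (0.52, limma adjusted p = 0.0831) and quantile normalization lost Ldb3 (−0.17, limma adjusted p = 0.124). The count lower by more than 1 on the log2 scale was 6 with median-ratio scaling and 4 with quantile normalization or without the 20 most abundant genes, against 2. Over all genes this share was 15.9% with median-ratio scaling and 8.45% as deposited. The count higher by more than 1 was 1 with median-ratio scaling or without the 20 most abundant genes. Over all genes that share was 11.1% with median-ratio scaling and 28.0% as deposited. Omitting 1 replicate gave 1 to 2 genes higher by more than 1, with 1 when icKO replicate 2 was left out.

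At E10.5, 0 genes passed by limma without an RPKM filter (0 lower, 0 higher, 6 at an unadjusted p under 0.05) and 0 by limma with eBayes without a trend (0 lower, 0 higher, 5 at an unadjusted p under 0.05). By limma, median-ratio scaling, quantile normalization and scaling without the 20 most abundant genes each gave 2 higher. Over all genes at E10.5, 0.864% were higher as deposited and 2.49% after median-ratio scaling, and 4.32% and 5.05% passed in either direction. Omitting 1 replicate gave 0 to 2 passing, 0 to 2 lower and 0 to 0 higher by limma, with 4 to 5 at an unadjusted p under 0.05. In the contrast between stages, median-ratio scaling left 1 gene on the higher side, and omitting 1 replicate gave 6 to 8 passing. Over all genes 27.2% were on the higher side after median-ratio scaling, and 68.7% passed as deposited.

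Values that changed sign were all near 0. At E10.5, Actn2 reached −0.094 without Ctrl replicate 2 (range −0.094 to 0.13) and Myoz2 0.019 without the 20 most abundant genes. Synpo2l was 0.036 with median-ratio scaling, 0.11 with quantile normalization and 0.089 without the 20 most abundant genes, and −0.25 to 0.042 when 1 replicate was omitted. The contrast for Csrp3 ran from −0.15 to 0.10 when 1 replicate was omitted.

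Same-numbered samples correlated by −0.0698 to 0.101 at E10.5 and by 0.0433 to 0.153 at 4 weeks in their deviations from the group means, so the numbers were not taken as pairs. Of the 3 pairs of a stage, 1 at E10.5 and 2 at 4 weeks correlated best with their own number. With the replicate block 1 gene passed at E10.5 (1 lower, and 0 higher by limma, 5 at an unadjusted p under 0.05), 10 at 4 weeks and 6 in the contrast. With 3 libraries a group, changes of the size seen at E10.5 lie near the limit of what these data can show, and Myot was too low there to pass the RPKM filter.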
